A study of Arabidopsis thaliana with 12 samples.

Results

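The late embryogenesis abundant (LEA) genes of Arabidopsis were followed in siliques of wild type plants and of plants with a seed-expressed hemoglobin, with and without a short oxygen shortage. A list of 51 LEA loci in 9 protein families was matched to the array, and 45 of them had a probe set among the 22746 probe sets tested. The annotation of the array named 35 of these members. The other 10 (ERD10, XERO1, RAB18, LEA14, LEA3, SAG21, LEA7, ECP63, EM6 and EM1) were named only by the study's table of called genes. The latter are in that table because they changed on these same arrays, so their calls are not independent evidence and are counted apart. The list of loci was itself chosen with earlier results of these data known, which limits the calls of the other 35 as well. No probe set was found under this rule for ERD14, UNE15, RAB28, ECP31, AT5G53260 and AT5G53270, which were not analysed here. Each member had 1 probe set, and each probe set named by the annotation was given to 1 gene there. For the 10 from the study's table, sharing with other genes was not checked.

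RNA from siliques was hybridized to 12 Affymetrix ATH1 arrays, 3 for each of 4 groups. WT plants were Col-0. AtHb1 plants came from a single transgenic line, L1-1, in the T3 generation, in which the Arabidopsis class-1 hemoglobin gene AtHb1 stands behind the seed-specific LeB4 promoter, in addition to the plant's own copy. Intact plants 45 days old were kept for 1 h in darkness in air with 21% oxygen (control) or 10.5% oxygen (hypoxia), so all groups shared the dark hour. Siliques in the middle of seed maturation were pooled for each replicate and hold silique wall, seed coat and embryo together. In such bulk samples fewer cells of a type and less RNA per cell cannot be told apart.

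LEA proteins are small, hydrophilic and mostly disordered proteins that accumulate late in seed development, when the embryo acquires desiccation tolerance, and in vegetative tissue under drought, cold or salt. They are thought to protect membranes and other proteins while water is lost. Many of their genes are switched on by abscisic acid (ABA) through bZIP factors such as ABI5 and by the B3 factor ABI3, and another set, the COR genes among them, is driven in leaves by the cold-regulated CBF factors.

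Signals were log2 values normalized by the authors with RMA. Calls rest on a limma fit over all arrays and need both an adjusted p under 0.05 and a change over 2-fold, that is, a log2 fold change beyond 1. Fold changes are given as log2 ± the standard error of that fit, with 3 arrays in each group. A member whose mean signal stayed under 6 in each group was taken as dim, and 11 of the 45 were dim, all of them named by the annotation. The remaining 34 members had a mean signal of 8.67 ± 0.27 (SD over 3 arrays) on WT control arrays, 9.57 ± 0.06 on WT hypoxia arrays, 9.96 ± 0.34 on AtHb1 control arrays and 9.40 ± 0.18 on AtHb1 hypoxia arrays. WT control was the lowest of the 4 groups for 28 of these 34 members, and AtHb1 control was the highest for 23. The 34 include the 10 from the study's table, and EM6 passed the limit only through AtHb1 control. These counts are therefore not independent evidence, and no such share was taken over all probe sets. In the same order of groups, the 35 members named by the annotation, dim ones included, had means of 7.53, 8.09, 8.43 and 8.01.

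**Figure D1:**
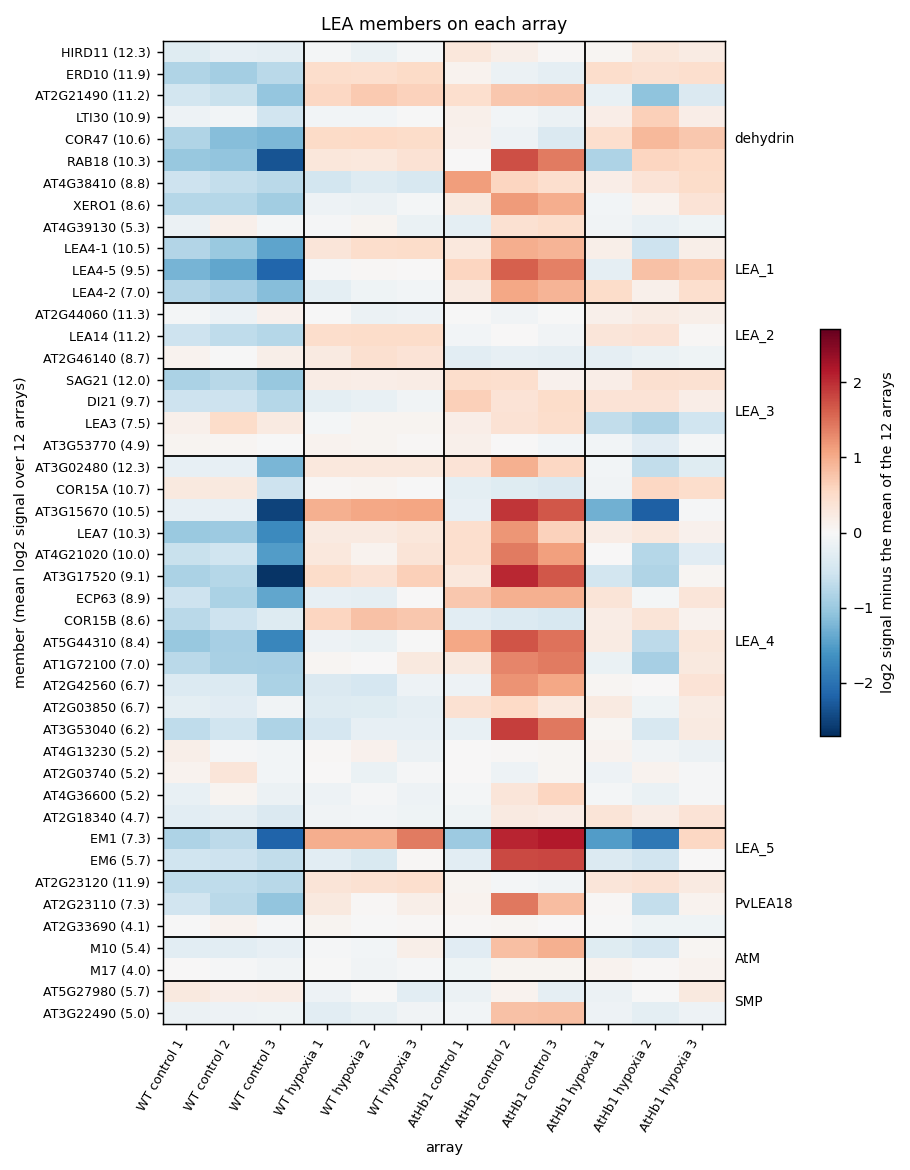
Each row is a LEA member with its mean log2 signal over the 12 arrays in parentheses, each column an array, and the colour gives the log2 signal minus that member's mean. Rows are grouped by family. WT control is blue for most rows with a signal above 6, and AtHb1 control replicates 2 and 3 are the reddest columns.

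The probe set of AtHb1 itself read 6.14, 5.99 and 5.88 on WT control arrays, 9.06, 9.07 and 9.14 on WT hypoxia arrays, 10.48, 12.06 and 11.93 on AtHb1 control arrays and 10.65, 10.38 and 11.12 on AtHb1 hypoxia arrays. It was higher in each AtHb1 array than in each WT array, as the labels require. Markers of the tissues in a silique were bright in each group: mean signals were 12.51 to 13.26 for the storage protein gene CRD, 12.61 to 13.15 for the photosynthesis gene RCA and 11.18 to 12.43 for the seed coat gene BAN. Between 3' and 5' probe sets of the Arabidopsis control transcripts, a sign of RNA integrity, the mean log2 gap was 1.29 on WT control arrays, 1.41 on WT hypoxia arrays, 1.81 on AtHb1 control arrays and 1.89 on AtHb1 hypoxia arrays. It moved with genotype, and its part in the genotype differences given below was not tested.

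The members differed within groups more than most genes did. The median SD of the 34 members was 0.20 among WT control arrays and 0.32 among AtHb1 control arrays, while over all probe sets, dim ones included, it was 0.094 and 0.089. Over all 45 members, dim ones included, it was 0.145 and 0.257. In WT hypoxia the median SD of the 34 members was 0.076, the same as over all probe sets. A single array stood apart in each control group. WT control replicate 3 was the lowest array of its group for 27 of the 34 members, while it was the lowest for 37.1% of all probe sets that were not dim. AtHb1 control replicate 1 was the lowest of its group for 21 of the 34 members, against 30.8% of such probe sets.

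AtHb1 control replicate 1 was not low for each member. Its signal minus the mean of replicates 2 and 3 was -3.07 for EM1, -2.08 for EM6, -2.02 for AT3G15670 and -1.86 for AT3G53040, and it was the highest of its group for 11 members, with AT4G38410 (0.62 above) and COR47 (0.39 above) first. Its AtHb1 probe set was also the lowest of its group, as given above. For WT control replicate 3 the same measure was -2.27 for AT3G15670, -1.83 for AT3G17520 and -1.38 for EM1, and for CRD it read 12.06 while replicates 1 and 2 both read 12.74. What made these arrays differ was not tested, and counts without them stand beside the counts with them.

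**Figure D2:**
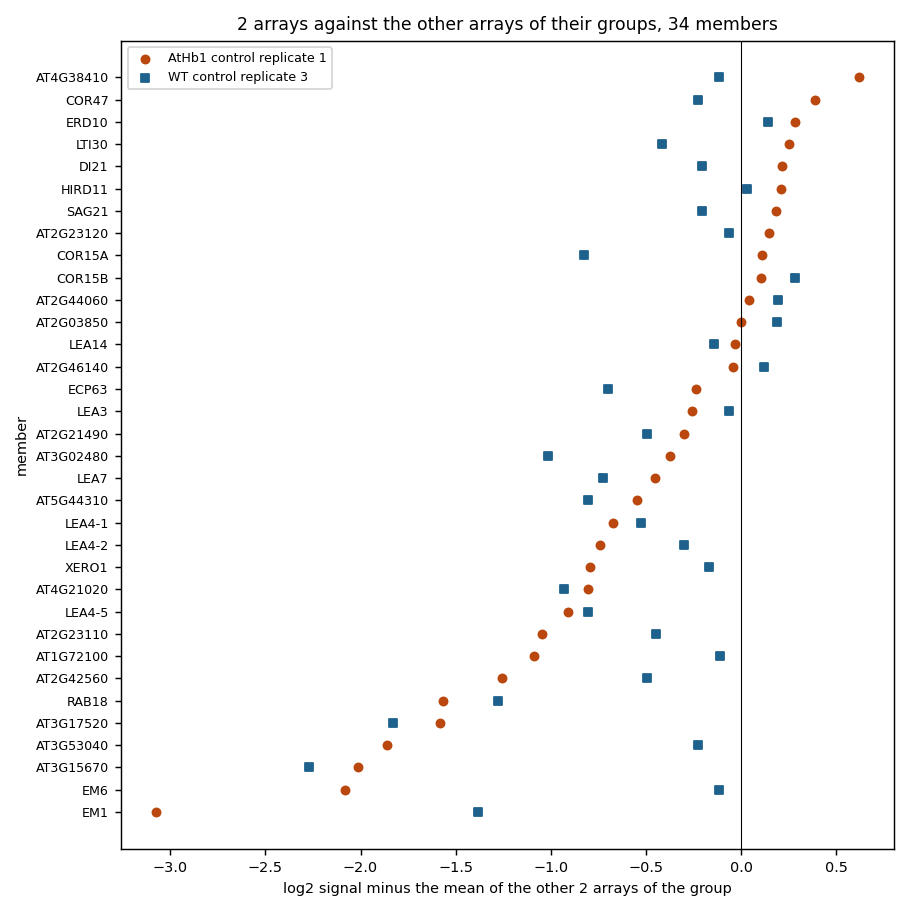
For 34 LEA members the horizontal axis gives the log2 signal on AtHb1 control replicate 1 (circles) and WT control replicate 3 (squares) minus the mean of the other 2 arrays of the same group. Circles run from -3.07 for EM1 to 0.62 for AT4G38410, and most squares lie below 0.

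In air, 22 of the 45 members were higher in AtHb1 than in WT siliques and none was lower. Of all probe sets, 1.20% were called higher and 0.972% lower in this comparison. The 22 hold 15 of the 35 members named by the annotation and 7 of the 10 from the study's table. By family they were the 3 LEA_1 genes, 10 of 17 LEA_4 genes, both EM genes, 4 of 9 dehydrins, 2 of 4 LEA_3 genes and 1 of 3 PvLEA18 genes, and none of the LEA_2, AtM or SMP genes was called. Both EM genes, the dehydrins XERO1 and RAB18, SAG21 of LEA_3, and LEA7 and ECP63 of LEA_4 are the 7 from the study's table. The counts of these families are therefore not independent evidence. The median log2 fold change was 0.91 over the members, 0.67 over those named by the annotation and -0.01 over all probe sets. At an adjusted p under 0.05 with no fold limit, 32 members were higher and AT2G46140 was lower (all probe sets: 17.5% and 15.7%), and the arrays of the groups did not overlap for 29 that were higher and 2 that were lower (all probe sets: 23.5% and 22.9%). Of the 35 named by the annotation, 23 were higher with no fold limit, and the arrays did not overlap for 21 and 2. Without WT control replicate 3 the 22 became 19, without AtHb1 control replicate 1 they became 23, and without both they became 21.

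Under hypoxia no member was called higher in AtHb1 than in WT siliques, and 3 were called lower, namely EM1, AT3G15670 and AT2G21490 (all probe sets: 0.791% higher and 0.950% lower). Those shares are 180 and 216 probe sets, and with the arrays centred on their medians they were 131 and 253, with the same counts of members. The median log2 fold change was -0.04 over the members and 0.01 over those named by the annotation. With no fold limit 8 members passed as higher and 9 as lower, while 22.3% and 18.3% of all probe sets did. The arrays did not overlap for 10 that were higher and 13 that were lower (26.7% and 24.2%). None of the 3 calls was made when AtHb1 hypoxia replicate 2 was left out.

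In WT siliques 16 members rose within the hour of hypoxia and none fell, 10 of them named by the annotation, where 1.53% of all probe sets rose and 0.290% fell. They were 4 dehydrins (COR47, ERD10, AT2G21490 and RAB18), LEA4-1 and LEA4-5, LEA14, SAG21, 6 LEA_4 genes, EM1 and AT2G23120. The median log2 fold change was 0.45 over the members, 0.26 over those named by the annotation and -0.03 over all probe sets. With no fold limit 24 members were higher and 1 was lower (8.70% and 7.13% of all probe sets), and the arrays did not overlap for 31 and 2 (16.4% and 19.8%). Of the 35 named by the annotation, 16 were higher and 1 was lower with no fold limit, and the arrays did not overlap for 22 and 1. This comparison and the one between genotypes in air use the same WT control arrays. Without WT control replicate 3 the count was 11, and without that array and AtHb1 control replicate 1 it was 12.

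In AtHb1 siliques no member rose after hypoxia and 9 fell, 7 of them named by the annotation, where 0.673% of all probe sets rose and 0.444% fell. The 9 were 6 LEA_4 genes (AT1G72100, AT3G15670, AT3G17520, AT3G53040, AT4G21020 and AT5G44310), the dehydrin AT2G21490, EM6 and LEA3. The median log2 fold change was -0.36 over the members and -0.35 over those named by the annotation. With no fold limit 6 members were higher and 17 lower (12.6% and 9.51% of all probe sets), and the arrays did not overlap for 8 and 12 (19.5% and 16.5%). The count depended on single arrays: it was 16 without AtHb1 control replicate 1, 16 without that array and WT control replicate 3, 5 without either of the other AtHb1 control arrays and 3 without AtHb1 hypoxia replicate 2. The calls gained without AtHb1 control replicate 1 were RAB18, LEA4-1, LEA4-5, AT3G02480, EM1, AT2G23110 and M10.

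The hypoxia response was lower in AtHb1 than in WT siliques for 17 members and higher for none, where 1.51% of all probe sets were called lower and 0.497% higher. Of the 17, 11 were among the 35 named by the annotation and 6 among the 10 from the study's table. The median difference of the responses was -0.77 over the members, -0.64 over those named by the annotation and 0.02 over all probe sets. With no fold limit 24 members were lower, 15 of them named by the annotation, and none was higher (5.30% and 6.98% of all probe sets). The count was 16 without WT control replicate 3, 21 without AtHb1 control replicate 1 and 20 without both. Without AtHb1 control replicate 1 the calls gained were EM6 (-2.45), AT3G53040 (-2.08), M10 (-1.42) and AT2G42560 (-1.20).

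The families are described in turn, from the dehydrins to the seed maturation proteins. Dehydrins carry lysine-rich K segments and are induced by cold, drought and ABA. RAB18, a classic ABA-responsive dehydrin, read 9.30, 9.26 and 8.00 on WT control arrays, 10.64, 10.61 and 10.73 on WT hypoxia arrays, 10.33, 12.07 and 11.73 on AtHb1 control arrays and 9.49, 10.91 and 10.87 on AtHb1 hypoxia arrays. Each WT hypoxia and each AtHb1 control array lay above the WT control arrays, while the AtHb1 groups overlapped. RAB18 was higher in AtHb1 at control by 2.52 ± 0.44 (5.75-fold, adjusted p = 0.00053) and rose in WT after hypoxia by 1.80 ± 0.44 (adjusted p = 0.0113). In AtHb1 siliques its log2 fold change was -0.95 ± 0.44 (adjusted p = 0.136), and the responses differed by -2.75 ± 0.63 (adjusted p = 0.0109). Without AtHb1 control replicate 1 its log2 fold change in AtHb1 was -1.47 (adjusted p = 0.026). With a trended, robust variance the calls in WT (adjusted p = 0.0741) and in the difference of the responses (adjusted p = 0.0665) were lost.

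AT2G21490, a dehydrin locus without a symbol used here, was called in all 5 comparisons. It read 10.74, 10.63 and 10.19 on WT control arrays, 11.81, 11.95 and 11.86 on WT hypoxia arrays, 11.68, 11.97 and 12.00 on AtHb1 control arrays and 11.04, 10.16 and 10.85 on AtHb1 hypoxia arrays. In each of the 4 comparisons of groups the arrays did not overlap. It rose by 1.35 ± 0.19 after hypoxia in WT (adjusted p = 0.000139) and fell by 1.20 ± 0.19 in AtHb1 (adjusted p = 0.000559). The gap between genotypes was 1.36 ± 0.19 in air (adjusted p = 8.01e-05) and -1.19 ± 0.19 under hypoxia (adjusted p = 0.000212), a turn of direction, and the responses differed by -2.55 ± 0.26 (adjusted p = 0.000102). Without AtHb1 hypoxia replicate 2 the values that use this group shrank under the 2-fold limit, to -0.94 for the response in AtHb1 and -0.92 for the gap under hypoxia.

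COR47 and ERD10, acidic dehydrins of cold and dehydration treated plants, followed another course. COR47 read 9.80, 9.46 and 9.41 on WT control arrays, 11.12, 11.15 and 11.12 on WT hypoxia arrays, 10.73, 10.47 and 10.21 on AtHb1 control arrays and 11.06, 11.48 and 11.35 on AtHb1 hypoxia arrays. ERD10 read 11.08, 10.98 and 11.18, then 12.37, 12.36 and 12.41, then 11.99, 11.75 and 11.66, and last 12.36, 12.31 and 12.35 in the same order of groups. Both were higher after hypoxia in each genotype with no overlap of arrays. COR47 rose by 1.57 ± 0.13 in WT (2.97-fold, adjusted p = 1.29e-06), and its change in AtHb1, 0.83 ± 0.13, stayed under the 2-fold limit (adjusted p = 0.000799). ERD10 rose by 1.30 ± 0.08 in WT (adjusted p = 7.34e-08), and its change in AtHb1 was 0.54 ± 0.08 (adjusted p = 0.000582). COR47 was also called between genotypes in air without WT control replicate 1 (1.03) or AtHb1 control replicate 3 (1.04).

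Of the other dehydrins, XERO1 and AT4G38410 were called only between genotypes in air among the 4 comparisons of groups, by 1.62 ± 0.17 and 1.37 ± 0.14, and XERO1 was called in the difference of the responses too. HIRD11 is a histidine-rich dehydrin that binds metal ions and was the brightest of the dehydrins measured here. It read 11.93, 12.04 and 12.01 on WT control arrays, 12.22, 12.09 and 12.21 on WT hypoxia arrays, 12.58, 12.43 and 12.31 on AtHb1 control arrays and 12.32, 12.56 and 12.48 on AtHb1 hypoxia arrays. It was higher in AtHb1 arrays in both conditions, by 0.45 ± 0.09 and 0.28 ± 0.09, and was not called. AT4G39130 was dim, with group means from 5.12 to 5.46.

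The LEA_1 family, known as group 4 LEA proteins, protects enzymes during drying in the test tube. All 3 of its genes were called higher in AtHb1 in air and lower in the difference of the responses. LEA4-5 read 8.26, 8.11 and 7.38 on WT control arrays, 9.49, 9.54 and 9.53 on WT hypoxia arrays, 10.10, 11.13 and 10.88 on AtHb1 control arrays and 9.28, 10.30 and 10.21 on AtHb1 hypoxia arrays. Its gap between genotypes in air, 2.79 ± 0.29 (6.91-fold, adjusted p = 7.94e-06), was the largest of the 45 members, and each AtHb1 control array lay above each WT control array. It rose by 1.61 ± 0.29 in WT after hypoxia (adjusted p = 0.00117), its log2 fold change in AtHb1 was -0.78 ± 0.29 (adjusted p = 0.0654), and the responses differed by -2.38 ± 0.40 (adjusted p = 0.00201). Without AtHb1 control replicate 1 the change in AtHb1 was -1.08 (adjusted p = 0.0188) for LEA4-5 and -1.03 for LEA4-1.

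LEA4-1, the brightest of the LEA_1 genes, read 9.68, 9.46 and 9.04 on WT control arrays, 10.79, 10.93 and 10.96 on WT hypoxia arrays, 10.74, 11.44 and 11.39 on AtHb1 control arrays and 10.62, 9.90 and 10.62 on AtHb1 hypoxia arrays. The WT groups did not overlap, nor did the AtHb1 groups, in opposite directions. It rose by 1.5 ± 0.21 in WT (adjusted p = 0.000155), the log2 fold change in AtHb1 was -0.81 ± 0.21 (adjusted p = 0.0151, under the 2-fold limit), and the difference was -2.31 ± 0.30 (adjusted p = 0.000353). For LEA4-2 the gap between genotypes in air was 1.67 ± 0.17, and the hypoxia responses were 0.79 ± 0.17 in WT and -0.36 ± 0.17 in AtHb1, neither of them called. They differed by -1.15 ± 0.24, or by -0.99 without AtHb1 control replicate 2.

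The LEA_2 family differs from the others in that its proteins fold and are less hydrophilic. Of its 3 members only LEA14 was called. LEA14 rose by 1.16 ± 0.09 in WT after hypoxia (adjusted p = 4.29e-07), and its change in AtHb1 was 0.29 ± 0.09 (adjusted p = 0.0346). AT2G44060, the brightest, read 11.28, 11.18 and 11.43 on WT control arrays, 11.31, 11.15 and 11.18 on WT hypoxia arrays, 11.31, 11.24 and 11.30 on AtHb1 control arrays and 11.45, 11.53 and 11.48 on AtHb1 hypoxia arrays. Its arrays ran only from 11.15 to 11.53. AT2G46140 was the only member lower in AtHb1 in air at the adjusted p alone, by a log2 fold change of -0.34 ± 0.07, and it was -0.52 ± 0.07 under hypoxia.

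In the LEA_3 family, whose members are small proteins of mitochondria and plastids, SAG21, DI21 and LEA3 were called. SAG21, a senescence-associated gene induced by oxidative stress, read 11.15, 11.26 and 11.00 on WT control arrays, 12.21, 12.18 and 12.21 on WT hypoxia arrays, 12.48, 12.47 and 12.13 on AtHb1 control arrays and 12.20, 12.44 and 12.43 on AtHb1 hypoxia arrays. The WT control arrays stood below all others, and the other 3 groups overlapped. SAG21 was higher in AtHb1 in air by 1.22 ± 0.10 (adjusted p = 1.66e-06) and rose in WT by 1.06 ± 0.10 (adjusted p = 3.96e-06), and its change in AtHb1 was -0.01 ± 0.10 (adjusted p = 0.977). Its call in WT was lost, at 0.99, without WT control replicate 3, and so was its call in the difference of the responses, just short of the limit without that array and at -0.99 without AtHb1 hypoxia replicate 1. DI21, a drought-induced gene, was higher in AtHb1 in air by 1.12 ± 0.09 and by 0.49 ± 0.09 under hypoxia, where it was not called. Its call in air was lost, at 0.99, without both control arrays that stood apart. LEA3 went another way: its signal was 7.84 ± 0.18 (SD) on WT control arrays, 7.58 ± 0.08 on WT hypoxia arrays, 7.89 ± 0.16 on AtHb1 control arrays and 6.86 ± 0.15 on AtHb1 hypoxia arrays, a fall of 1.03 ± 0.11 in AtHb1 (adjusted p = 1.65e-05). The value was just under the limit, at -0.97 or -0.95, without AtHb1 control replicate 3 or AtHb1 hypoxia replicate 2. AT3G53770 was dim.

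The LEA_4 family holds proteins with repeated helical motifs and was the largest measured here, with 17 members. AT3G15670 had the second largest difference of the responses. It read 10.28, 10.27 and 8.00 on WT control arrays, 11.46, 11.54 and 11.57 on WT hypoxia arrays, 10.28, 12.42 and 12.18 on AtHb1 control arrays and 9.20, 8.29 and 10.46 on AtHb1 hypoxia arrays. Only the WT hypoxia arrays lay close together, and the AtHb1 groups overlapped because control replicate 1 read below hypoxia replicate 3. It rose by 2.00 ± 0.64 in WT (adjusted p = 0.0451) and fell by 2.31 ± 0.64 in AtHb1 (adjusted p = 0.0193), and the responses differed by -4.32 ± 0.90 (adjusted p = 0.00679). The gap between genotypes was 2.11 ± 0.64 in air (adjusted p = 0.019) and -2.20 ± 0.64 under hypoxia (adjusted p = 0.0128). None of these 5 calls was made when limma's variance was fitted with a trend and robustly. Its call in WT was lost in 9 of 20 other fits, at 1.25 without WT control replicate 3 and between 1.98 and 2.04 without any of the WT hypoxia arrays or AtHb1 control replicate 3. Its call in AtHb1 was lost without AtHb1 control replicate 2 (-1.91) or 3 (-2.04) and without AtHb1 hypoxia replicate 2 (-1.80). The gap in air was not called without WT control replicate 3 (1.36), AtHb1 control replicate 2 (1.72) or 3 (1.84), nor the gap under hypoxia without AtHb1 hypoxia replicate 2 (-1.69).

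AT3G17520 read 8.29, 8.37 and 6.50 on WT control arrays, 9.63, 9.52 and 9.78 on WT hypoxia arrays, 9.42, 11.17 and 10.83 on AtHb1 control arrays and 8.65, 8.34 and 9.20 on AtHb1 hypoxia arrays. The arrays of the control and hypoxia groups did not overlap in either genotype. It was 2.76 ± 0.46 higher in AtHb1 in air (6.75-fold, adjusted p = 0.000337), rose by 1.93 ± 0.46 in WT (adjusted p = 0.00899) and fell by 1.75 ± 0.46 in AtHb1 (adjusted p = 0.0149). The responses differed by -3.67 ± 0.64 (adjusted p = 0.00252). The call in AtHb1 was lost without AtHb1 control replicate 2 (-1.40) or replicate 3 (-1.57), and the calls in WT and in AtHb1 were both lost with a trended, robust variance (adjusted p = 0.0656 and 0.0694).

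AT5G44310 and AT4G21020 moved in the same directions with less spread. AT5G44310 read 7.36, 7.49 and 6.62 on WT control arrays, 8.25, 8.20 and 8.38 on WT hypoxia arrays, 9.42, 10.08 and 9.85 on AtHb1 control arrays and 8.60, 7.67 and 8.68 on AtHb1 hypoxia arrays. AT4G21020 read 9.38, 9.45 and 8.49, then 10.27, 10.08 and 10.34, then 10.43, 11.38 and 11.09, and last 10, 9.21 and 9.67 in the same order. In each genotype the control and hypoxia arrays of both genes were apart. AT5G44310 was 2.63 ± 0.26 higher in AtHb1 in air (6.18-fold, adjusted p = 5.54e-06), rose by 1.12 ± 0.26 in WT (adjusted p = 0.00717) and fell by 1.47 ± 0.26 in AtHb1 (adjusted p = 0.00131). AT4G21020 was 1.86 ± 0.26 higher in air, rose by 1.12 ± 0.26 in WT (adjusted p = 0.00848) and fell by 1.34 ± 0.26 in AtHb1 (adjusted p = 0.00289). The differences of their responses were -2.58 ± 0.36 and -2.47 ± 0.37. Without WT control replicate 3 neither was called in WT, at 0.85 for AT5G44310 and 0.81 for AT4G21020, while both stayed called in AtHb1 and in the difference of the responses.

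AT1G72100 read 6.28, 6.12 and 6.09 on WT control arrays, 7.04, 7.01 and 7.25 on WT hypoxia arrays, 7.27, 8.30 and 8.41 on AtHb1 control arrays and 6.82, 6.09 and 7.27 on AtHb1 hypoxia arrays. It was higher in AtHb1 in air by 1.83 ± 0.28 (adjusted p = 0.000166) and fell in AtHb1 after hypoxia by 1.27 ± 0.28 (adjusted p = 0.0056), though the AtHb1 groups overlapped and the value was -0.95 without AtHb1 hypoxia replicate 2. The difference of the responses was -2.21 ± 0.39 (adjusted p = 0.0027).

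AT3G02480, the brightest LEA_4 gene measured here, read 12.10, 12.09 and 11.07 on WT control arrays, 12.60, 12.61 and 12.60 on WT hypoxia arrays, 12.69, 13.27 and 12.87 on AtHb1 control arrays and 12.23, 11.64 and 11.99 on AtHb1 hypoxia arrays. It was 1.19 ± 0.23 higher in AtHb1 in air (adjusted p = 0.00105) and not called without WT control replicate 3, where the log2 fold change was 0.85. Its responses were 0.85 ± 0.23 in WT and -0.99 ± 0.23 in AtHb1, both under the 2-fold limit, and they differed by -1.84 ± 0.32 (adjusted p = 0.00254). Without a single array the response passed the limit in several fits, as at -1.11 in AtHb1 without AtHb1 control replicate 1 and at 1.02 in WT without WT control replicate 1 or 2.

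LEA7 and ECP63, the latter first known from embryogenic cells, were higher in AtHb1 in air by 1.98 ± 0.19 (3.95-fold) and 1.83 ± 0.17. LEA7 rose in WT by 1.5 ± 0.19 (adjusted p = 5.01e-05), and both were called in the difference of the responses, at -2.05 ± 0.26 and -1.47 ± 0.24. AT3G53040 and AT2G42560 were higher in AtHb1 in air by 1.72 ± 0.36 and 1.24 ± 0.26, with AtHb1 control replicate 1 at 5.97 for AT3G53040 and the other arrays of the group at 8.05 and 7.60. The WT control mean of AT3G53040, 5.49, was under the limit of 6, and measured from that limit the gap in air was at least 2.31-fold. AT3G53040 also fell in AtHb1 after hypoxia by 1.07 ± 0.36 (adjusted p = 0.0475), a call lost in 15 of the 20 other fits, with values between -1.21 and -0.65. For AT2G42560 the gap in air was just short of the limit without AtHb1 control replicate 2. AT2G03850 was higher in AtHb1 by 0.62 ± 0.10 in air and was not called. AT2G03740, AT2G18340, AT4G13230 and AT4G36600 were dim, with log2 fold changes between -0.37 and 0.41 in the 4 comparisons of groups.

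The LEA_5 family holds the Em proteins EM1 and EM6, highly hydrophilic proteins of the dry seed whose genes are targets of ABI5. EM1 read 6.42, 6.56 and 5.11 on WT control arrays, 8.24, 8.25 and 8.67 on WT hypoxia arrays, 6.28, 9.31 and 9.41 on AtHb1 control arrays and 5.75, 5.33 and 7.83 on AtHb1 hypoxia arrays. The WT groups were apart, but AtHb1 control replicate 1 read within the WT control range and the AtHb1 groups overlapped. EM1 rose by 2.36 ± 0.73 in WT (5.13-fold, adjusted p = 0.0399), and its log2 fold change in AtHb1 was -2.03 ± 0.73 (adjusted p = 0.0593). The gap between genotypes was 2.31 ± 0.73 in air (adjusted p = 0.0246) and -2.09 ± 0.73 under hypoxia (adjusted p = 0.0336), and the difference of the responses was -4.39 ± 1.03 (adjusted p = 0.0131), the largest of the 45 members. These 4 calls were lost with a trended, robust variance. The gap in air was also lost without WT control replicate 3 (1.84) or AtHb1 control replicate 2 (1.82) or 3 (1.77), and the rise in WT in 7 of 20 other fits, between 1.90 and 2.63. The gap under hypoxia was lost in 7 as well, between -2.16 and -1.60. Without AtHb1 control replicate 1, the change of EM1 in AtHb1 was called at -3.06 (adjusted p = 0.00309). EM6 read 5.38 on AtHb1 control replicate 1 and 7.45 and 7.46 on the other arrays of the group, while all other arrays lay between 5.0 and 5.70. Only AtHb1 control had a mean above the limit of 6 (6.76, from 2 arrays), so the sizes below are distances to dim signals. Measured from that limit, AtHb1 control was at least 1.70-fold above WT control and above AtHb1 hypoxia. In the fit EM6 was called higher in AtHb1 in air (1.69 ± 0.39, adjusted p = 0.00384) and lower after hypoxia in AtHb1 (-1.39 ± 0.39, adjusted p = 0.0211). The latter call was lost in 5 of 20 other fits. These were the fits without AtHb1 control replicate 2 (-1.04) or 3 (-1.04) or AtHb1 hypoxia replicate 2 (-1.27). The others were limma on the compared groups alone (adjusted p = 0.0734) and with a trended, robust variance (adjusted p = 0.0847).

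**Figure D3:**
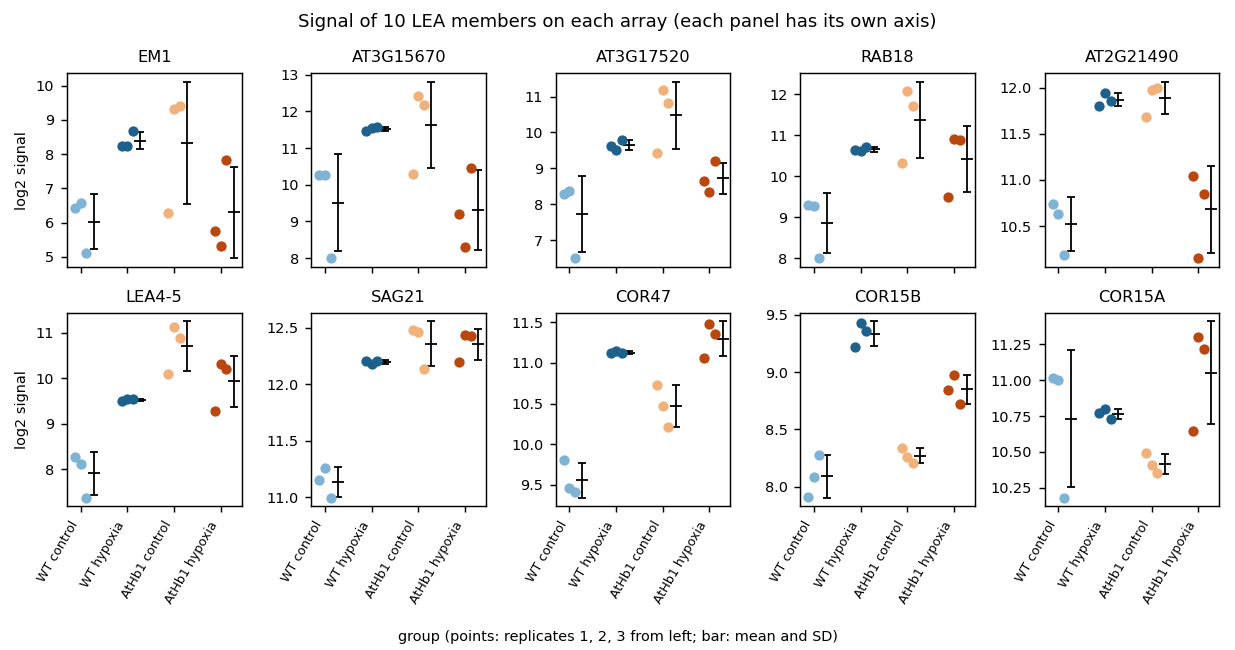
Each panel shows the log2 signal of a LEA member on each array (vertical axis, scaled to the panel) in the 4 groups (horizontal axis). Points are replicates 1 to 3 from left to right, and the bar gives the mean and SD. EM1 runs from 5.11 to 9.41 with a wide spread in AtHb1 control, while COR47 is higher after hypoxia in both genotypes.

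In the PvLEA18 family AT2G23110 was higher in AtHb1 in air by 1.56 ± 0.26 (adjusted p = 0.000397), and its responses, 0.92 ± 0.26 in WT and -0.96 ± 0.26 in AtHb1, differed by -1.88 ± 0.37 (adjusted p = 0.00512). Its change was called at -1.31 in AtHb1 without AtHb1 control replicate 1 and at 1.05 in WT without WT control replicate 1. AT2G23120 rose in WT by 1.10 ± 0.07 (adjusted p = 6.15e-08), and AT2G33690 was dim. The AtM genes M10 and M17 and the seed maturation protein (SMP) genes AT3G22490 and AT5G27980 were all dim and none was called. Without AtHb1 control replicate 1, M10 was called higher in AtHb1 in air (1.15) and lower after hypoxia in AtHb1 (-1.13). AT5G27980, the brighter of the SMP genes measured here, read 5.95, 5.86 and 5.88 on WT control arrays, 5.55, 5.68 and 5.40 on WT hypoxia arrays, 5.54, 5.79 and 5.45 on AtHb1 control arrays and 5.53, 5.68 and 5.96 on AtHb1 hypoxia arrays. Its WT control arrays lay above the WT hypoxia arrays, by a log2 fold change of -0.35 ± 0.11 (adjusted p = 0.0464).

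The hypoxia responses of WT and AtHb1 siliques share no arrays, so they were set side by side. The change was above 0 in WT and below 0 in AtHb1 for 25 of the 45 members, above 0 in both for 10, below 0 in both for 7 and the reverse for 3. Across the members the changes had a Pearson correlation of -0.44 (45 genes), and of -0.53 over the 35 named by the annotation. This is a description across genes that were read on the same arrays and are not independent of each other. The 45 include the 11 dim members and the 10 from the study's table. Neither the sign counts nor the correlation was taken over all probe sets. Called as risen in WT and as fallen in AtHb1 were 5 members, AT2G21490, AT3G15670, AT3G17520, AT4G21020 and AT5G44310, all named by the annotation. Of all probe sets 17 of 22746 (0.0747%) met both calls. The count of members rested on single arrays: it was 2 without WT control replicate 3 (AT2G21490 and AT3G17520), 3 without AtHb1 hypoxia replicate 2, 3 without AtHb1 control replicate 2 or 3, and 9 without AtHb1 control replicate 1. It was 6 without both control arrays that stood apart, and 2 (AT2G21490 and AT5G44310) with a trended, robust variance. With no fold limit 11 members did, 9 of them named by the annotation, where 0.721% of all probe sets did.

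COR47, ERD10, LEA14, COR15B and AT2G23120 rose in WT and were higher after hypoxia in AtHb1 as well at the adjusted p alone, with log2 fold changes there of 0.83, 0.54, 0.29, 0.58 and 0.35. No member passed the 2-fold limit as risen in both genotypes. The differences of the responses for these 5 were -0.74, -0.76, -0.87, -0.67 and -0.76, which passed the adjusted p without reaching 2-fold. The other 11 members that rose in WT had log2 fold changes in AtHb1 between -2.31 and -0.01.

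**Figure D4:**
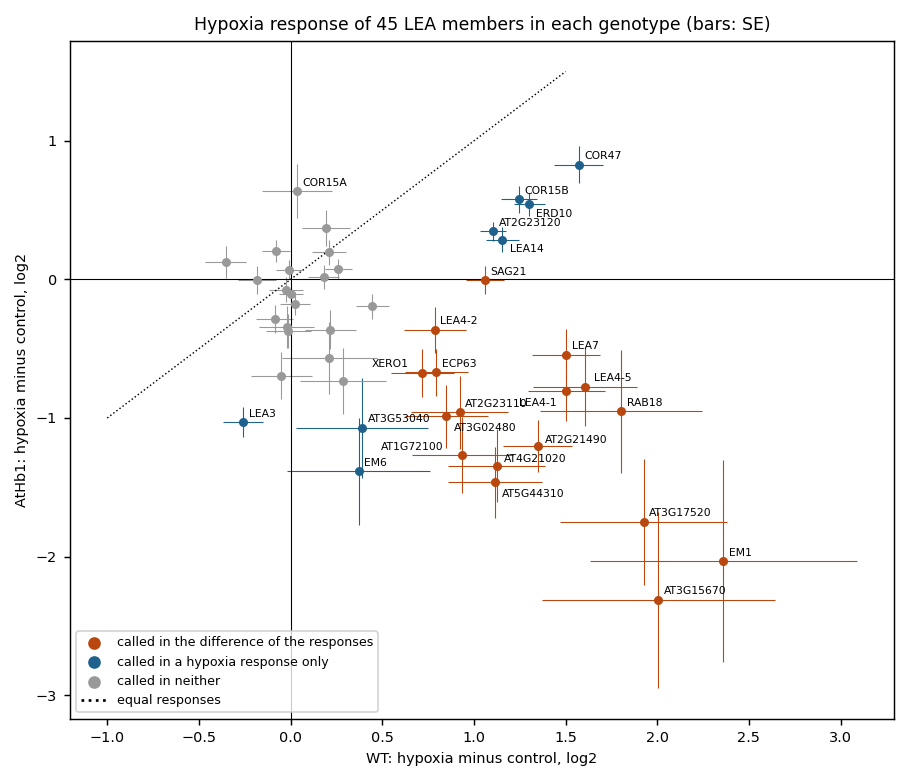
Each point is a LEA member, placed by its log2 fold change after hypoxia in WT (horizontal axis) and in AtHb1 (vertical axis), with standard errors as bars. The 17 members called in the difference of the responses lie at the right, at or below 0 on the vertical axis, and COR47, ERD10, COR15B, LEA14 and AT2G23120 lie above it.

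Some members are neighbours on a chromosome, and 5 such pairs with no protein-coding gene between them in the RefSeq annotation (TAIR10.1) had probe sets for both. The log2 fold changes of COR47 and ERD10 differed by at most 0.29 in any comparison of groups. COR15B and COR15A, which encode closely similar plastid proteins that protect membranes in the cold, lay further apart. COR15B read 7.91, 8.08 and 8.28 on WT control arrays, 9.22, 9.43 and 9.36 on WT hypoxia arrays, 8.34, 8.26 and 8.21 on AtHb1 control arrays and 8.85, 8.98 and 8.72 on AtHb1 hypoxia arrays. COR15A read 11.01, 11.00 and 10.18, then 10.77, 10.80 and 10.73, then 10.49, 10.41 and 10.35, and last 10.65, 11.30 and 11.21. COR15B rose in WT by 1.24 ± 0.10 (adjusted p = 5.15e-07), while COR15A changed by 0.03 ± 0.19, and the per-array difference between the genes did not overlap between the WT groups. Whether probes of these similar genes bind each other's RNA was not tested.

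LTI30 and XERO1 are neighbouring dehydrin genes of which only XERO1 was called. XERO1 read 7.83, 7.81 and 7.65 on WT control arrays, 8.46, 8.44 and 8.55 on WT hypoxia arrays, 8.86, 9.75 and 9.56 on AtHb1 control arrays and 8.51, 8.69 and 8.95 on AtHb1 hypoxia arrays. LTI30 read 10.79, 10.84 and 10.40, then 10.85, 10.84 and 10.90, then 11.05, 10.84 and 10.75, and last 11.10, 11.56 and 11.11. The gap between genotypes in air was 1.62 ± 0.17 for XERO1 and 0.21 ± 0.13 for LTI30, and the per-array difference between them did not overlap between the groups.

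AT2G23110 read 6.76, 6.57 and 6.22 on WT control arrays, 7.56, 7.31 and 7.45 on WT hypoxia arrays, 7.38, 8.72 and 8.13 on AtHb1 control arrays and 7.32, 6.66 and 7.39 on AtHb1 hypoxia arrays. Its neighbour AT2G23120, the brightest PvLEA18 gene on this array, read 11.21, 11.21 and 11.15, then 12.24, 12.31 and 12.34, then 11.97, 11.83 and 11.80, and last 12.21, 12.29 and 12.14. After hypoxia in AtHb1 the former changed by -0.96 and the latter by 0.35, and the per-array difference did not overlap between the AtHb1 groups.

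M10 read 5.11, 5.12 and 5.18 on WT control arrays, 5.37, 5.33 and 5.57 on WT hypoxia arrays, 5.10, 6.22 and 6.36 on AtHb1 control arrays and 5.09, 4.95 and 5.46 on AtHb1 hypoxia arrays. M17 stayed between 3.93 and 4.14 on all arrays. Over the 5 pairs and 4 comparisons of groups, the per-array difference between neighbours did not overlap in 7 of 20 tests, and an exact two-sided permutation test gave 0.10 for each of those, the smallest value that 3 arrays against 3 allow. After adjustment over the 20 tests the smallest p was 0.286. Since 0.10 already lies above the adjusted p limit used for calls, no test could have passed. These p-values therefore cannot decide whether neighbours differed, and the overlap of arrays is only a description.

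**Figure D5:**
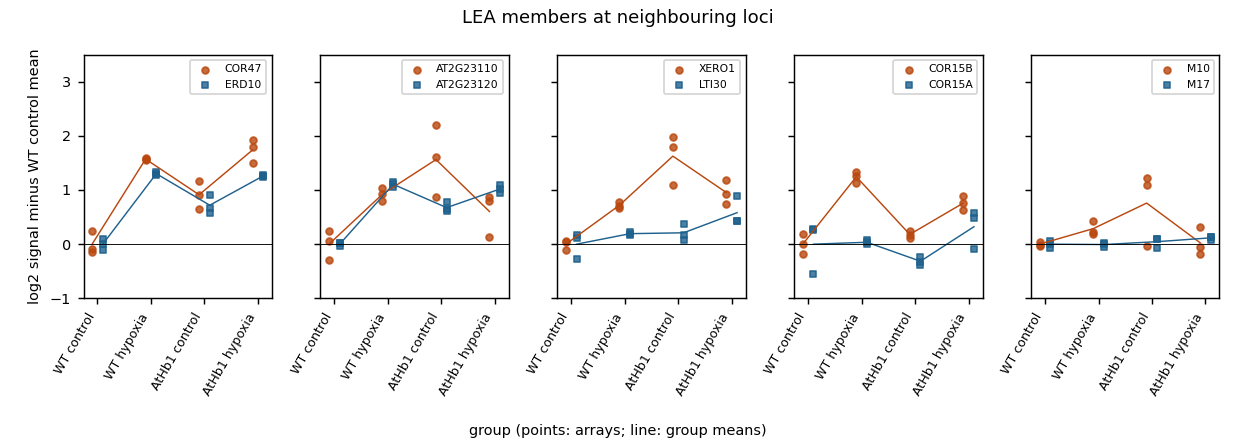
The vertical axis gives the log2 signal of each array minus the member's mean in WT control, for 5 pairs of LEA members at neighbouring loci in the 4 groups. Lines join group means. COR47 and ERD10 run together, while COR15B is above COR15A in WT hypoxia and XERO1 above LTI30 in AtHb1 control.

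Other genes of seed maturation and of ABA and cold responses were read from lists that the array names only in part. Both storage protein genes with a probe set, CRD and PAP85, were called lower in the difference of the responses, at -1.40 and -1.03. Of all probe sets, 1.51% were called lower and 0.497% higher there. Also lower were 4 of 6 genes of oil bodies, tonoplast and seed antioxidants, with the seed tonoplast aquaporins TIP3;2 at -2.10 and TIP3;1 at -1.98 and the caleosin CLO2 at -1.77. All 4 are named by the study's table alone. The 2 genes of this list named by the annotation were not called, with differences of -0.53 and -0.12. Among 5 regulators of seed maturation DOG1, EEL and bZIP67 were called lower, while LEC2, named here after its values were seen, went the other way at the adjusted p alone (0.89 ± 0.14, adjusted p = 0.00144) and was called higher in AtHb1 under hypoxia by 1.18 ± 0.10 (adjusted p = 2.32e-06). In air none of the 5 was called between genotypes, and all 5 were higher in AtHb1 at the adjusted p alone, as were 17.5% of all probe sets. Of 15 regulators listed only these 5 had a probe set, and 3 of the 5 are named by the study's table alone. The 7 ABA and cold targets without a LEA domain were read by 6 probe sets, since KIN1 and KIN2 share one, and HVA22B and GOLS2 were called lower, and RD29A rose in both genotypes, by 1.26 in WT and 1.10 in AtHb1. The annotation named CRD, PAP85, EEL, KIN1 and KIN2, and the other genes given here are named by the study's table alone, where each stands for its change on these arrays. Of the markers of other silique tissues, only 1 of 10 listed silique wall genes and 1 of 7 seed coat genes had a probe set. Both moved with genotype: RCA was lower in AtHb1 by log2 fold changes of -0.35 in air and -0.55 under hypoxia, and BAN by -0.89 and -1.07. The part of tissue makeup in the LEA differences was not tested.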

How the data were processed

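Per the labels and the study's methods, RNA from siliques was hybridized to Affymetrix ATH1 arrays, scans were processed with MAS5 (the Affymetrix software suite), and the authors deposited log2 signals per probe set after RMA, which corrects background, brings the arrays to a common distribution and summarises the probes. The version of the RMA package is not given in the sources used here. A shift shared by most genes is therefore not seen, and low signals are compressed. The values were used as deposited. No count or depth stands behind them, and the number of arrays limits the precision.

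Of 22810 probe sets, 64 controls were set apart and 22746 were tested. Loci came from the annotation of the platform or, where it named none, from the study's table of called genes. Fold changes and p-values in that table were not used. LEA families were assigned from general knowledge, and neighbouring loci were found in RefSeq (TAIR10.1). Members and lists were chosen with earlier results of these data known.

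Group means over the 12 arrays were fitted and contrasted in R 4.3.3 with limma 3.58.1, using its moderated variance (eBayes). Within each comparison, Benjamini-Hochberg adjustment covered every probe set tested. Python 3.11.15 with pandas 2.3.3 served for tables, and the fit was tested on simulated data. The replicates are biological per the labels, and replicate numbers were not used as pairs.

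All-array values are given for the 10 members with the largest called difference of the responses, for the brightest member of each family and for neighbouring loci. Full statistics are given for at most 8 called members of a comparison, those with the largest change, and at most 3 genes are named from another list. Members named beyond these to complete a family, and statistics of further called members, were picked with their values known. Alternatives tried were other fold limits, an unadjusted p, fits of the compared groups alone, a trended and robust variance, array weights, renewed quantile normalization, median centring, dim probe sets left out, a replicate block and each array left out in turn. A fit without both control arrays that stood apart was chosen after seeing the data.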

Additional observations from a re-analysis of the deposited data

Results flagged for a closer look

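The hypoxia response of 17 LEA members differed between the genotypes by the limma interaction, always lower in AtHb1. The difference of the responses (AtHb1 minus WT, log2) was -4.39 for EM1, -4.32 for AT3G15670, -3.67 for AT3G17520, -2.75 for RAB18, -2.58 for AT5G44310, -2.55 for AT2G21490, -2.47 for AT4G21020, -2.38 for LEA4-5 and -2.31 for LEA4-1. It was -2.21 for AT1G72100, -2.05 for LEA7, -1.88 for AT2G23110, -1.84 for AT3G02480, -1.47 for ECP63, -1.39 for XERO1, -1.15 for LEA4-2 and -1.07 for SAG21. In 12 of these 17 the limma call also held under each of the 19 other fits. The exceptions were EM1, AT3G15670 and RAB18, which were lost with a trended and robust variance, and LEA4-2 and SAG21, which moved just under the 2-fold limit when some arrays were left out.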

How the results depend on the processing

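Of 67 calls of members over the 5 comparisons, 40 held under all other fits (20, or 19 for the difference of the responses) and 27 were lost under at least 1. With no fold limit 1 member was lower in AtHb1 in air, 8 were higher and 9 lower in AtHb1 under hypoxia, 1 was lower after hypoxia in WT, and 6 were higher and 17 lower after hypoxia in AtHb1. With a 1.5-fold limit the counts were 1 higher and 5 lower in AtHb1 under hypoxia and 2 higher and 16 lower after hypoxia in AtHb1. No share of all probe sets was taken at that limit, so these counts only describe the members. With a trended and robust variance 1 member was lower in AtHb1 under hypoxia and 5 fell after hypoxia in AtHb1. Over the members named by the annotation alone, 10 rose in WT and 11 were lower in the difference of the responses.

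Leaving out each array in turn gave 19 to 23 members higher in AtHb1 in air, 0 to 3 lower under hypoxia, 11 to 17 risen in WT, 3 to 16 fallen in AtHb1 and 16 to 21 lower in the difference of the responses, and none in the opposite directions. Without both control arrays that stood apart, 16 members fell in AtHb1.

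With the replicate number as a block, the calls were 22 higher in AtHb1 in air, 3 lower under hypoxia, 15 risen in WT, 9 fallen in AtHb1 and 19 lower in the difference of the responses. The samples share only a number: deviations of same-numbered samples correlated between -0.13 and 0.12, above 0.1 in 2 of 18 pairs.

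Centring the arrays on their medians moved the split of all probe sets between genotypes under hypoxia from 180 higher and 216 lower to 131 and 253, and it left 3 members lower. The alternatives on probe sets shared by several genes and on several probe sets of a locus change nothing here, since each member had 1 probe set and none was recorded as shared. For the 10 members from the study's table, sharing was not checked. Signals near background limit the 11 dim members, for which no call says little.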
